A study of Mus musculus with 3 samples.

Results

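The nuclear genes of respiratory chain complexes I to IV were read on 3 microarrays of cultured mouse mast cells. Members were all genes whose name in the scanner files begins with Nduf, Sdha, Sdhb, Sdhc, Sdhd, Uqcr, Cox4, Cox5, Cox6, Cox7 or Cox8. The rule gave 79 of the 31031 named genes on the array, read by 102 probes. They comprise 43 genes of complex I, 8 of complex II, 8 of complex III and 20 of complex IV, and they include 11 assembly factors that are not part of the finished enzymes. The rule uses gene names and no measured value.

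The cells were bone marrow derived mast cells (BMMCs), grown from marrow of male 12-week-old mice on the C57BL/6 background. All 3 cultures lacked Pafah2, the phospholipase known for releasing omega-3 epoxides from membrane lipids in mast cells, and no wild-type culture was measured. One culture received only the vehicle, DMSO. One received omega-3 epoxides, a mixture of 17,18-EpETE and 19,20-EpDPE in the ratio 2 to 3 at 300 nM. One received GW9662, a compound known as an antagonist of the nuclear receptor PPARgamma, at 0.5 µM. Exposure lasted 12 h. Each condition is 1 array of 1 culture, so no difference below has a replicate or a test, and each describes a pair of arrays.

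The respiratory chain passes electrons from NADH (complex I) or succinate (complex II) through ubiquinone to complex III, cytochrome c and complex IV, where oxygen is reduced. Complexes I, III and IV pump protons, and ATP synthase uses the gradient. In mast cells this chain is known to supply ATP during degranulation. Some complex IV subunits exist as pairs, a form present in most tissues and a form known mainly from heart and skeletal muscle, lung or testis.

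A level here is the log2 of a probe's background-subtracted signal minus the log2 of the array's 75th percentile, so 0 is the 75th percentile. A log2 ratio is the difference of a gene's levels on a pair of arrays. Levels of different probes depend on their sequence, so each gene was compared only with itself across arrays. Of non-control spots, 52.3% to 54.6% were well above background, and the lowest such level lay between -5.57 and -4.84. Copies of 1 probe on an array scattered with a median SD of 0.0553 to 0.0602, which gives a log2 ratio a spot SD of 0.0786 to 0.0821. Differences between cultures, labellings or hybridisations are not included in it.

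The identity of the treated arrays is unsettled. The authors' value table and the scanner files disagree on which treated sample is which: the values that the table lists under epoxides are those scanned for GW9662, and the reverse, and only vehicle is the same in both. The arrays are therefore named below as labelled in the scanner files. If the value table is right, every statement on one treated array belongs to the other treatment.

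Complex IV has 7 families of alternative subunits among the members, and each form has a probe of its own. The first 30 bases of each 60-base probe are shown, 5′ to 3′, for the families in which one form was well above background and another was not, and for Cox4i and Cox6a, whose forms were all measured. Between the whole probes of a family no shared run was longer than 7 bases.
Cox8a: tattggctctgcttggtggggtcccccttt
Cox8b: ctataaaaagagctccgcagcatgaagttg
Cox8c: gcatcatatggacgacgaacataatctgct
Cox7b: gatcagtagtcgtgccagctggtacaataa
Cox7b2: gactttgcagatctctgaaaacagacctgt
Ndufa4: ccgcacaattttccacttaagcaggaaata
Ndufa4l2: tgtccctggggatcaaacagaagcagccgt
Cox4i1: aagcgaatgctggacatgaaggccaacccc
Cox4i2: ctgagtcctgtctccactcccttctccaat
Cox6a1: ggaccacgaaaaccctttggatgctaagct
Cox6a2: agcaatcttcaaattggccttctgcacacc

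Of the 79 members, 75 were well above background on all 3 arrays, which is 94.9% of members against 50.5% of all genes. The other 4 were well above background on no array, and all 4 are alternative complex IV subunits. Cox8b, known from heart and skeletal muscle, read -6.85 with vehicle, -6.66 on the epoxide-labelled array and -7.03 on the GW9662-labelled array. Cox8c, known from testis, read -6.78, -7.54 and -6.99 in the same order. Cox7b2, also a testis form, read -7.07, -7.79 and -7.08. All of these values lie under -5.57, the dimmest level called above background on any array. Ndufa4l2, known as induced by hypoxia, read -4.93, -5.54 and -6.86. No fold is given for these 4 genes, since neither side of a ratio was measured.

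The general forms of these families were measured on every array. Cox8a, the general form of a small complex IV subunit, read 6.09 with vehicle, 6.02 on the epoxide-labelled array and 6.03 on the GW9662-labelled array. A second Cox8a probe read 6.02, 5.73 and 5.96, so its log2 ratio to vehicle on the epoxide-labelled array was -0.29 where that of the first was -0.077. Cox7b read 5.06, 4.93 and 5.06. Ndufa4, named for complex I but known as a subunit of complex IV, read 4.02, 4.14 and 4.19, with vehicle the lowest. The log2 ratio to vehicle of Ndufa4 was 0.12 on the epoxide-labelled array and 0.17 on the GW9662-labelled array, the latter just over 2 spot SDs.

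**Figure D1:**
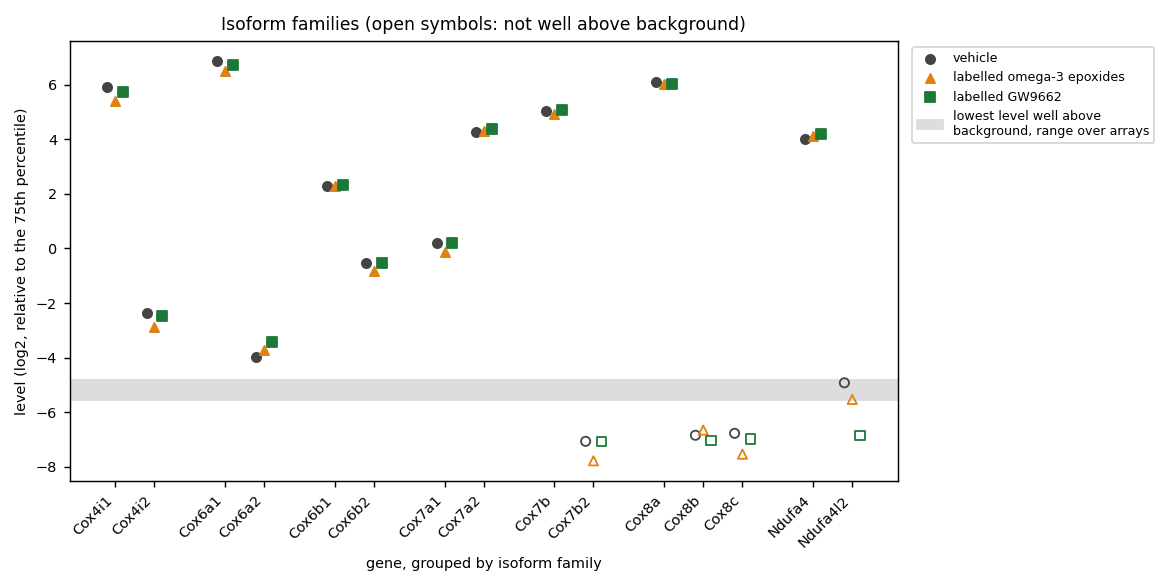
Levels of the 15 genes of 7 isoform families (log2 signal relative to the array's 75th percentile, y axis) on the 3 arrays, grouped by family along the x axis. Filled symbols are well above background and open symbols are not, and the grey band runs from -5.57 to -4.84, the range over arrays of the dimmest level still called above background. Cox7b2, Cox8b, Cox8c and Ndufa4l2 have only open symbols.

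Cox4i1, the general form of the subunit through which ATP is known to inhibit complex IV, read 5.92 with vehicle, 5.41 on the epoxide-labelled array and 5.76 on the GW9662-labelled array. Its probe lies at chr8:123197924-123197983 (mm9, plus strand). Vehicle was highest and the epoxide-labelled array lowest, with a log2 ratio to vehicle of -0.51. The lung form, Cox4i2, known as induced by low oxygen, had the same order, with -2.35, -2.89 and -2.49 and a log2 ratio of -0.53 (chr2:152590711-152590770, mm9, plus strand). Both forms were thus lower on the epoxide-labelled array by more than 2 spot SDs. After removal of a trend fitted over all detected probes in GC content (the share of G and C bases) and signal, the ratios were -0.15 for Cox4i1 and -0.23 for Cox4i2.

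Cox6a1, the general form of a subunit known for regulating complex IV activity, read 6.89 with vehicle, 6.50 on the epoxide-labelled array and 6.72 on the GW9662-labelled array (chr5:115795726-115795785, mm9, minus strand). Its log2 ratio was -0.39 on the epoxide-labelled array, and 0.01 with the trend removed. The muscle form, Cox6a2, went the other way. It read -3.96 with vehicle, -3.73 on the epoxide-labelled array and -3.44 on the GW9662-labelled array (chr7:135349160-135349219, mm9, minus strand). Vehicle was the lowest of the 3, and the log2 ratio of the GW9662-labelled array was 0.52, or 1.43-fold. With normexp background correction it was 0.26, and with the trend removed 0.67. On the epoxide-labelled array the ratio of Cox6a2 was 0.23, which became -0.06 with normexp and 0.79 with the trend removed. Cox6a2 is a dim gene, and the dimmest level still called above background was -4.84 with vehicle, -5.57 on the epoxide-labelled array and -5.03 on the GW9662-labelled array.

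The other 2 pairs with both forms measured were Cox6b and Cox7a. The general form Cox6b1, which helps hold the complex IV dimer together, read 2.31, 2.30 and 2.32, and its 3 values spanned 0.016. The testis form Cox6b2 read -0.53 with vehicle, -0.84 on the epoxide-labelled array and -0.53 on the GW9662-labelled array. Cox7a2, the general form, read 4.29, 4.30 and 4.39. The muscle form Cox7a1 read 0.19, -0.13 and 0.20. In both families the tissue form was lower on the epoxide-labelled array alone, with log2 ratios of -0.31 for Cox6b2 and -0.33 for Cox7a1. Over the 4 tissue forms that were measured, the median log2 ratio of the epoxide-labelled array to vehicle was -0.32, and that over the 10 general complex IV subunits was -0.043. With the trend removed the tissue forms' median was -0.0075, and their probes are GC-rich (48.3% to 55%, against a median of 41.7% over all genes measured).

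Of the tissues these forms are known from, striated muscle and testis had marker lists, and lung had none. The striated muscle markers were mostly at background, and the testis germ cell markers only in part. Of 5 striated muscle markers only Ckm was well above background, on the vehicle array alone (-3.14), and Acta1, Actn2, Myh6 and Tnnt2 were at background throughout. Summed over the list on the linear scale, in units of the 75th percentile, they gave 0.168 with vehicle, 0.0356 on the epoxide-labelled array and 0.0599 on the GW9662-labelled array, where on both treated arrays the sum is of signals not well above background. Of 4 testis germ cell markers, Prm2 and Tnp1 were well above background on all arrays, Acrv1 on both treated arrays and Prm1 on none, with summed levels of 0.110 to 0.176. Mast cell markers were well above background on all arrays for 10 of 10 genes, with summed levels of 601 with vehicle, 458 on the epoxide-labelled array and 535 on the GW9662-labelled array. Markers of other blood cells were also above background: 3 of 3 for basophils and 4 of 6 for macrophages on all arrays, 3 or 4 of 8 for neutrophils, and Cd79a of B cells on the GW9662-labelled array only. Of 3 T cell markers Cd3e was above background on all arrays, at -0.31 with vehicle, -1.40 on the epoxide-labelled array and -0.61 on the GW9662-labelled array. Of 3 erythroid markers Hba-a1 was, at -2.89, -3.35 and -3.06 in the same order. The rest of both lists were above background on no array. The part of any of these cells in the members' values was not tested. In such bulk samples, fewer cells of a type and less RNA per cell cannot be told apart.

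**Figure D2:**
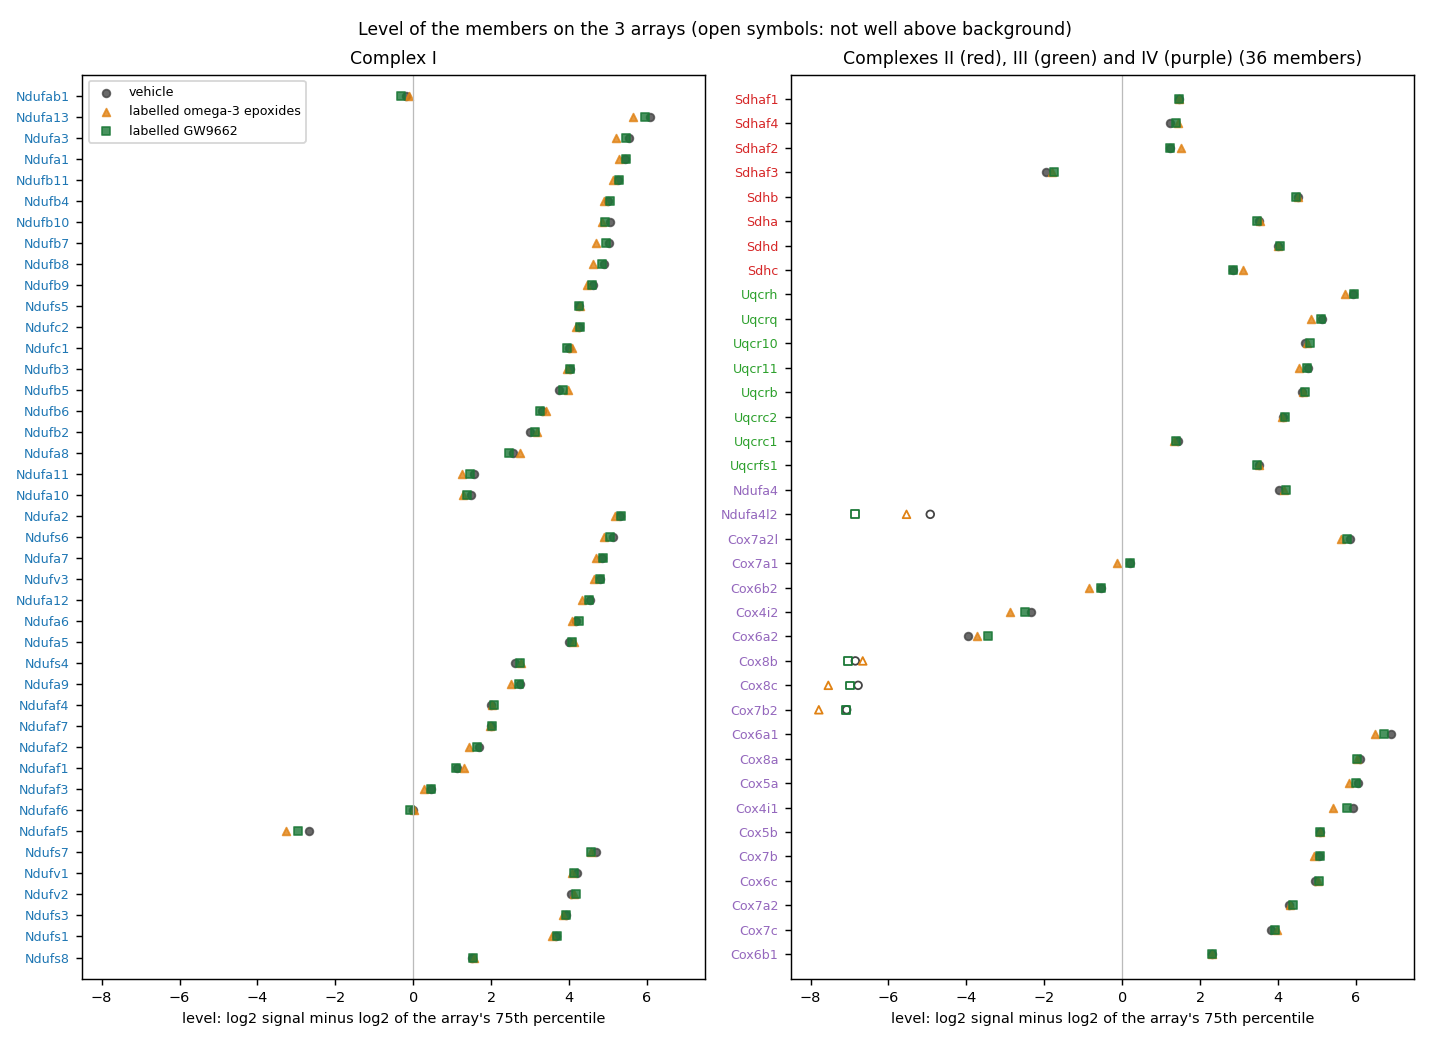
Level of the members on each array (log2 signal relative to the 75th percentile, x axis), with complex I on the left and complexes II to IV on the right, ordered by role, with 1 member of complex I not drawn. Open symbols mark values not well above background. The 3 symbols of a gene nearly coincide for most members, with a median span of 0.17 among the 75 measured.

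Across the 75 measured members the 3 levels of a gene spanned a median of 0.17 on the log2 scale, which is 1.13-fold. The same span was 0.20 over all 15682 genes measured on all arrays, and 0.17 over those at or above the median level. Among the members whose levels on all 3 arrays are given here, the most even was Cox6b1. The widest span of the 75 was that of Ndufaf5, at 0.61. The epoxide-labelled array was the lowest of the 3 for 45 of 75 members (60.0%), against 53.6% of all genes measured. By complex it was the lowest for 28 of 43 members of complex I, 5 of 8 of complex III and 11 of 16 of complex IV. In complex II it was the lowest for 1 of 8 and the highest for 4 of 8, where it was the highest for 31.7% of all genes measured.

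Complex I oxidises NADH in its peripheral arm, where FMN and iron-sulfur clusters carry the electrons, and pumps protons in its membrane arm. The 7 core subunits of the peripheral arm were all measured, and the log2 ratios of the epoxide-labelled array to vehicle had a median of -0.093. Ndufv1, which binds NADH and FMN, read 4.20 with vehicle, 4.07 on the epoxide-labelled array and 4.12 on the GW9662-labelled array. Its partner Ndufv2, an iron-sulfur protein, read 4.04, 4.13 and 4.17, so vehicle was highest for one and lowest for the other. Both differences stayed within 2 spot SDs.

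Ndufs1, the largest core subunit, read 3.66 with vehicle, 3.56 on the epoxide-labelled array and 3.68 on the GW9662-labelled array. Ndufs3 read 3.93, 3.84 and 3.92, and Ndufs8, which carries iron-sulfur clusters, read 1.51, 1.55 and 1.54. In each of these the arrays lay within 0.13 of each other. Near the ubiquinone site, Ndufs7 read 4.68, 4.56 and 4.57, highest with vehicle. Of all 7 core subunits none differed from vehicle by more than 2 spot SDs on either treated array. The 9 accessory subunits of the peripheral arm had a median log2 ratio of -0.15 on the epoxide-labelled array and 0.028 on the GW9662-labelled array. Ndufs4, an accessory subunit whose loss is known to cause Leigh syndrome, read 2.60 with vehicle, 2.78 on the epoxide-labelled array and 2.74 on the GW9662-labelled array, lowest with vehicle.

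In the membrane arm, the 19 accessory subunits had a median log2 ratio of -0.14 on the epoxide-labelled array, with 13 lower than vehicle (61.1% of all genes were lower). On the epoxide-labelled array the median became 0.036 with quantile normalization and 0.0031 with the trend removed, with 9 lower in each. On the GW9662-labelled array the median was -0.041. Ndufa13, known also as GRIM-19, read 6.07 with vehicle, 5.64 on the epoxide-labelled array and 5.95 on the GW9662-labelled array. Ndufb7 read 5.02, 4.70 and 4.94. For both, vehicle was highest and the epoxide-labelled array lowest, with log2 ratios to vehicle of -0.43 and -0.32. Both probes hold 55% G and C, and with the trend removed the ratios were -0.06 for Ndufa13 and -0.01 for Ndufb7. Ndufab1, the mitochondrial acyl carrier protein found in both arms, read -0.19, -0.11 and -0.32, lowest on the GW9662-labelled array.

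Among the 7 assembly factors of complex I, Ndufaf5, which hydroxylates an arginine of Ndufs7 during assembly, was the only member 1.5-fold apart from vehicle. Its probe, at chr2:139996598-139996657 (mm9, plus strand), read -2.67 with vehicle, -3.27 on the epoxide-labelled array and -2.97 on the GW9662-labelled array. The epoxide-labelled array was 1.52-fold lower than vehicle (log2 ratio -0.61), and the GW9662-labelled array lay between them at -0.30. The probe holds 55% G and C, and the ratio on the epoxide-labelled array was -0.12 with the trend removed and -0.41 with quantile normalization. A second Ndufaf5 probe pointed the other way. It was well above background only on the epoxide-labelled array, at -3.72. That is 2.17-fold over the dimmest level called above background with vehicle, and 2.47-fold over that of the GW9662-labelled array. These folds are not strict bounds, since a spot not called can lie over the dimmest called level. Ndufa4l2, at -5.54 on the epoxide-labelled array against -5.57, was such a case.

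Complex II, succinate dehydrogenase, links the citric acid cycle to the chain. The brightest probes of its catalytic subunits stayed within 2 spot SDs of vehicle. Sdha, which holds FAD, read 3.51 with vehicle, 3.55 on the epoxide-labelled array and 3.47 on the GW9662-labelled array, and Sdhb, which holds the iron-sulfur clusters, read 4.52, 4.52 and 4.47. A second Sdhb probe read 2.15, 1.98 and 2.07, with a log2 ratio to vehicle of -0.17 on the epoxide-labelled array. Of the membrane anchors that bind ubiquinone, Sdhd read 3.99, 4.0 and 4.05. Sdhc read 2.85, 3.10 and 2.83, highest on the epoxide-labelled array with a log2 ratio of 0.26. The brighter Sdhc probe holds 25% G and C, and a second Sdhc probe with 55% gave -0.41, in the opposite direction.

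The assembly factors of complex II had a median log2 ratio of 0.20 on the epoxide-labelled array over 4 genes, and 0.076 with the trend removed. Among these members Sdhaf1, named here as an exception to the rule for giving values, had a ratio of -0.016. Sdhaf2, which helps attach FAD to Sdha, read 1.24 with vehicle, 1.5 on the epoxide-labelled array and 1.22 on the GW9662-labelled array. Sdhaf4, which assists Sdha assembly, read 1.22, 1.44 and 1.37. Sdhaf3, which assists maturation of Sdhb, read -1.97, -1.79 and -1.74. Vehicle was lowest for Sdhaf3 and Sdhaf4, and the GW9662-labelled array for Sdhaf2. With the trend removed, the epoxide-labelled log2 ratios were -0.08 for Sdhaf2, 0.12 for Sdhaf4 and 0.07 for Sdhaf3.

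Complex III passes electrons from ubiquinol to cytochrome c. Uqcrfs1, the Rieske iron-sulfur protein and the one catalytic subunit of complex III among the members, read 3.51 with vehicle, 3.51 on the epoxide-labelled array and 3.47 on the GW9662-labelled array. Uqcrc2, a core protein without a redox group, was printed in 10 copies per array and read 4.12 ± 0.026 with vehicle, 4.10 ± 0.029 on the epoxide-labelled array and 4.18 ± 0.027 on the GW9662-labelled array (SD among the 10 spots of an array). Its partner Uqcrc1 read 1.44, 1.33 and 1.38. These values spanned at most 0.11.

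Among the small subunits, Uqcrq, next to cytochrome b, read 5.12 with vehicle, 4.84 on the epoxide-labelled array and 5.11 on the GW9662-labelled array. Uqcr11 read 4.77, 4.54 and 4.74. Uqcrh, the hinge protein beside cytochrome c1, read 5.92, 5.73 and 5.96. All 3 were lowest on the epoxide-labelled array by more than 2 spot SDs, and level on the other 2. With the trend removed the ratios to vehicle were -0.12 for Uqcrq, -0.044 for Uqcr11 and -0.037 for Uqcrh, all within 2 spot SDs, and Uqcrh was at 0.044 with quantile normalization. A second Uqcrh probe gave -0.0078, and a second Uqcr11 probe -0.14, both within 2 spot SDs. A second Uqcrq probe gave -0.32 on the epoxide-labelled array and -0.14 on the GW9662-labelled array, so by that probe the other 2 arrays were less level. Uqcr10 read 4.70, 4.73 and 4.82, and Uqcrb, which binds near the ubiquinone site, read 4.62, 4.63 and 4.70. By these brightest probes both were highest on the GW9662-labelled array, but their further probes differed. For Uqcr10 these read 4.40, 4.49 and 4.47, highest on the epoxide-labelled array, and 2.54, 2.17 and 2.48, highest with vehicle. For Uqcrb they read 4.01, 3.96 and 4.07, highest on the GW9662-labelled array, and 3.28, 3.37 and 3.36, highest on the epoxide-labelled array.

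Taking all members, 1 of 75 was 1.5-fold apart between the epoxide-labelled and vehicle arrays (Ndufaf5), where 10.2% of the 15796 genes measured on both were. At 2-fold the members gave 0 and all genes 2.29%. For the GW9662-labelled array against vehicle, 0 of 75 members and 1.84% of 15779 genes were 1.5-fold apart. Between the treated arrays the figures were 0 of 75 and 5.73% of 16027. The members' count is under the share of all genes in all 3 comparisons, which share arrays and are not independent. For the GW9662-labelled array against vehicle, 0 of 75 is close to the 1.84% of all genes. No 1.5-fold share is given for genes of like brightness, so these counts do not set the members apart. Most members are bright genes, and dim genes spread more: the SD of log2 ratios on the epoxide-labelled array was 0.19 over members and 0.36 over all genes, and 0.17 and 0.22 among genes at or above the median level.

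Smaller differences were counted against the spot SD. On the epoxide-labelled array 34 of 75 members lay over 2 spot SDs from vehicle, against 52.9% of all genes. Of these 24 were lower (36.8% of all genes) and 10 higher (16.1% of all genes). On the GW9662-labelled array 5 of 75 did, against 21.4% of all genes. The 2 lower ones were Ndufaf5 and Cox6a1 (14.5% of all genes were lower), and the 3 higher ones Ndufa4, Sdhaf3 and Cox6a2 (6.91% of all genes).

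**Figure D3:**
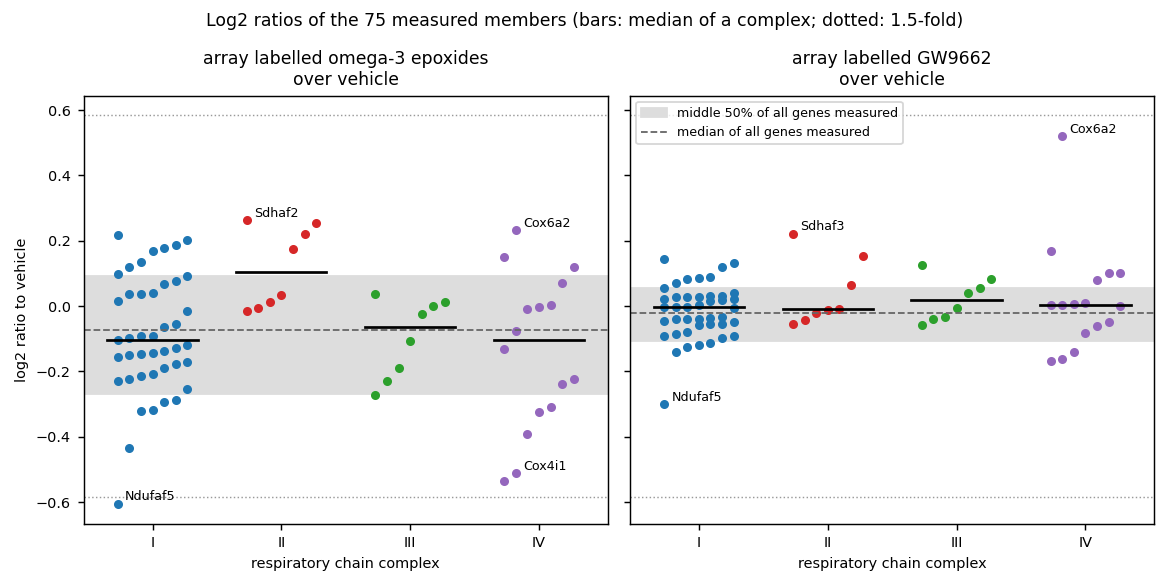
Log2 ratio to vehicle (y axis) of the 75 measured members by complex, for the epoxide-labelled array on the left and the GW9662-labelled array on the right. Each point is a gene, black bars are medians of a complex, the grey band and dashed line are the middle 50% and median of all genes measured, and dotted lines mark 1.5-fold. Complex II lies highest on the left, with a median of 0.10, and the medians on the right lie between -0.010 and 0.018.

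By complex, the median log2 ratio of the epoxide-labelled array to vehicle was -0.10 for complex I, 0.10 for complex II, -0.065 for complex III and -0.10 for complex IV, against -0.073 for all genes. Over all members it was -0.077, with 46 of 75 lower (61.1% of all genes were lower). Complex II stood apart in direction, with 6 of 8 members higher. For the GW9662-labelled array the medians were -0.0039, -0.010, 0.018 and 0.0028, against -0.022 for all genes, and 40 of 75 members were lower (57.8% of all genes). Between the treated arrays, complex II had 0.059 and complexes I, III and IV had -0.089, -0.085 and -0.14, with 55 of 75 members lower on the epoxide-labelled array (61.1% of all genes). There, 15 of the 16 measured members of complex IV were lower, but 8 with quantile normalization (median -0.0034) and 10 with the trend removed. With quantile normalization 48.3% of all genes were lower, and with the trend removed 49.2%.

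These shifts depended on the scaling. With quantile normalization the members split 44 higher and 31 lower on the epoxide-labelled array, in place of 29 and 46. All genes moved as well, with 48.6% lower in place of 61.1%. The medians were 0.002 for complex I, 0.18 for complex II, 0.052 for complex III and 0.020 for complex IV. After removal of the GC and signal trend they were 0.023, 0.016, 0.021 and 0.0094, with 45 members higher and 30 lower (49.1% of all genes were lower). The order of the complexes was thus kept in part by quantile normalization, with complex II still the highest, and not once the trend was removed.

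The ratios followed the base composition of the probes. Across the 75 members, which share the arrays, the log2 ratio of the epoxide-labelled array to vehicle had a correlation of -0.680 with the probe's G and C content, where all genes gave -0.482. The 28 members whose probes hold at most 40% G and C had a median ratio of 0.070 and 8 were lower than vehicle. The 17 with at least 50% had a median of -0.29 and 15 were lower. Over all genes of any G and C content 61.1% were lower, and no share of all genes by class is given. Median G and C content was 45% for complex I, 35% for complex II, 44.2% for complex III and 42.5% for complex IV. For the GW9662-labelled array the correlation was -0.225. With the trend removed the correlations were 0.244 and 0.160.

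**Figure D4:**
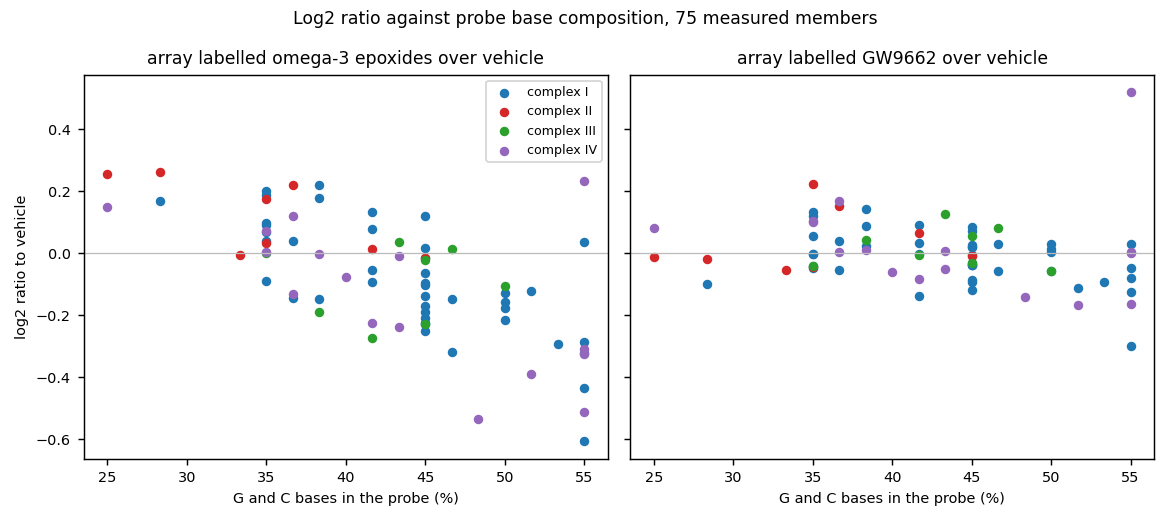
Log2 ratio to vehicle (y axis) against probe GC content (x axis, percent) for the 75 measured members, coloured by complex, for the epoxide-labelled array on the left and the GW9662-labelled array on the right. On the left the ratios fall from left to right, with a median of 0.070 at 40% or less and -0.29 at 50% or more.

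Second probes gave a check within genes. Of the members 18 had over 1 probe, with 23 further probes, of which 22 were measured. The files place 7 of the 23 on another chromosome than RefSeq places the gene. On the GW9662-labelled array 17 of 22 had the sign of the brightest probe, and 21 of 22 lay within 0.2 of its ratio. On the epoxide-labelled array 13 of 22 had the same sign and 13 lay within 0.2, with a median gap of 0.16. The other 61 members rest on 1 probe. For Cox7c, Ndufb11 and Ndufs5, named here after their values were seen, the files place the brightest probe on another chromosome than RefSeq places the gene, as for those 7 further probes, so a near-identical copy could share the signal. Their log2 ratios on the epoxide-labelled array were 0.15, -0.15 and 0.04. For Cox7c and Ndufb11 a further probe is placed on the gene's own chromosome, and both were far dimmer than the brightest probe. That of Cox7c read -2.86 with vehicle, against 3.83, and its ratio was -0.79. That of Ndufb11 read -2.72, against 5.26, and its ratio was -0.00047. The remaining Cox7c probe, also placed on another chromosome, gave -0.29. The files give no exon or UTR position for the probes.

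The remaining genes of oxidative phosphorylation came from lists by name. All 17 ATP synthase genes were well above background, and all 17 were lower on the epoxide-labelled array (61.1% of all genes were), with a median log2 ratio of -0.18. The farthest from 0 was Atp5d, at -0.32. None was 1.5-fold apart, and with the trend removed the median was -0.053. On the GW9662-labelled array their median was -0.016, with 11 of 17 lower (57.8% of all genes). Cyc1, the cytochrome c1 of complex III, which the name rule leaves out, read 3.38 with vehicle, 3.00 on the epoxide-labelled array and 3.15 on the GW9662-labelled array. Cycs, cytochrome c itself, read 4.38, 4.40 and 4.45, level across the arrays.

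Of 30 further assembly factors outside the name rule 28 were measured, with medians of -0.012 on the epoxide-labelled array and -0.0073 on the GW9662-labelled array. Of 12 regulators of mitochondrial biogenesis 11 were measured, and 3 were lower and 8 higher than vehicle on each treated array, where 61.1% and 57.8% of all genes were lower. The medians were 0.11 on the epoxide-labelled array, or 0.061 with the trend removed, and 0.026 on the GW9662-labelled array. The farthest from 0 on the epoxide-labelled array was Nrf1, an activator known to bind respiratory chain promoters, which read 0.50 with vehicle, 0.89 on the epoxide-labelled array and 0.60 on the GW9662-labelled array. Its log2 ratios were 0.40 and 0.10.

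Promoters of the members were searched for motifs of such activators, in the 250 bases before the transcription start from RefSeq (GRCm38.p6), on both strands. A promoter was found for 62 of the 75 measured members. The NRF1 motif, which is GCGCA, any base and GCGC, was in 10 of them (16.1%), against 4.23% of all 27025 promoters and 9.21% of those of measured genes. The ETS motif CCGGAAG, bound by GABP, was in 11 (17.7%, against 7.83% and 15.7%). The YY1 motif GCCATNTT was in 7 (11.3%, against 4.49% and 5.46%), and the SP motif GGGCGG in 28 (45.2%, against 35.4% and 60.7%). The ERR motif TCAAGGTCA was in 0, against 0.422% and 0.341%. A match is a description of letters, not of a bound site. Cox6a1 and Sdhd are shown because they hold both the NRF1 and the ETS motif, and Cox8a and Cox8b because one form was measured and the other was at background, with no match in either. Capitals mark matches to any of the 5 motifs.
Cox6a1, chr5:115348959-115349208, minus strand: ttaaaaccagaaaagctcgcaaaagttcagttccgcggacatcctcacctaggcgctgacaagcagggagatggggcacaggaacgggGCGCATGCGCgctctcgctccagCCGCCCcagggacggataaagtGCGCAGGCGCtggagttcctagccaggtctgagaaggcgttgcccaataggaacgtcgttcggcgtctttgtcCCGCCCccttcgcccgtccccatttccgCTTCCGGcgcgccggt
Sdhd, chr9:50603850-50604099, minus strand: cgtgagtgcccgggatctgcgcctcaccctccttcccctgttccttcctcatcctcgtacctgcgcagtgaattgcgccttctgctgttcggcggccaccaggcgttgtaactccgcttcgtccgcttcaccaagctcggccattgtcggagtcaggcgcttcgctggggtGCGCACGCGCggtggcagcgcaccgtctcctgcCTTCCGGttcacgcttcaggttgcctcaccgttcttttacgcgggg
Cox8a, chr19:7217617-7217866, minus strand: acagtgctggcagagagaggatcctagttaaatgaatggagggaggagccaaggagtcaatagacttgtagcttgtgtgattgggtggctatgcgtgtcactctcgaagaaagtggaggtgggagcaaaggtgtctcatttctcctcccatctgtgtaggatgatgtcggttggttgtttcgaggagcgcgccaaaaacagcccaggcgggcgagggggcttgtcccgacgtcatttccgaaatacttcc
Cox8b, chr7:140900447-140900696, minus strand: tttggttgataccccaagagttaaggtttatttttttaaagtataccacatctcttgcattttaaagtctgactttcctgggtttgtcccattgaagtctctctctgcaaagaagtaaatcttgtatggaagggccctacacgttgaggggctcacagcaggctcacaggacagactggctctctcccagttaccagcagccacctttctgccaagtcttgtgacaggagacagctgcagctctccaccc

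Cox6a1 holds 2 NRF1 matches, and its level was lower on both treated arrays than with vehicle (log2 ratios -0.39 and -0.17). Sdhd holds 1, and its 3 levels spanned 0.063. Promoter coordinates are of another genome build than the probe positions and were not set against them.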

How the data were processed

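Levels were computed from gProcessedSignal, which per the file headers is a background-subtracted, detrended intensity on a linear scale from Agilent Feature Extraction 11.5.1.1 (the version per the submitters' processing notes). The authors' deposited table gives a linear ratio, each intensity over its array's 75th percentile, with the treated samples exchanged relative to the scanner files. RNA was labelled with Cy3 from 200 ng of total RNA, per the labels' protocols. Genome positions of probes are those of the files (mm9).

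For each array log2 intensity was reduced by the log2 of its 75th percentile over the 43020 non-control spots. Spots marked as outliers (221 to 251 per array) were dropped and repeated spots of a probe averaged. None was saturated. A gene was read by its brightest probe and counted as measured where that probe was well above background on both arrays. Of 102 member probes 100 had an accession in RefSeq, all with the same symbol. The rule goes by file names, so 1810043H04Rik, Ndufaf8 in RefSeq, is no member. With 1 array per group no test was made. The spot SD is the median SD over 219 probes with at least 5 copies, combined for a pair of arrays, which limits precision together with the number of arrays.

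Alternatives were normexp (offset 50), quantile and cyclic loess normalization, other scaling, the value table, probe means, other filters, leaving out rows 181 to 400 of 532, and removal of a trend (quadratic) in GC content and signal of the probes (R 4.3.3, limma 3.58.1, Python 3.11.15, numpy 2.4.6, pandas 2.3.3). The scripts were tested on simulated data. Members, gene and marker lists and the row range were chosen with earlier results of these data known. Members are named with values if they belong to an isoform family, are core redox subunits, were 1.5-fold apart, or were among the 3 farthest from 0 of a complex in a comparison with vehicle. Other genes come from lists, with up to 3 named, and exceptions are stated. One member is counted but not reported by name here.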

Additional observations from a re-analysis of the deposited data

How the results depend on the processing

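The median log2 ratio of members on the epoxide-labelled array to vehicle, -0.077, became 0.021 with cyclic loess, 0.037 with quantile normalization, 0.018 after removal of the GC and signal trend and 0.014 after removal of that trend and of the array rows named in the methods (43 members measured). Between the treated arrays the median of -0.084 became 0.084 with the value table, whose columns are exchanged, -0.00034 with the trend removed, -0.0056 with rows and trend removed, and -0.011 with cyclic loess or quantile normalization (41 of 75 lower in the last, in place of 55). Of all genes 48.3% were lower there with quantile normalization, in place of 61.1%. The 1 member 1.5-fold apart from vehicle on the epoxide-labelled array became 0 at 2-fold and with the value table, cyclic loess, normexp, quantile normalization, scaling on detected probes, genes at or above the median level, and rows and trend removed together. It became 4 when dim probes were not filtered. With the trend removed the count is again 1, but the member is Cox6a2 and not Ndufaf5, and without those rows it is Ndufv3. Ndufv3, given values here as an exception to the naming rule, was then read by a dimmer probe. That probe read -2.55 with vehicle and its log2 ratio was -0.66. The brightest Ndufv3 probe, which lies in those rows, read 4.78 with vehicle and its ratio was -0.16. For the GW9662-labelled array the count of 0 became 1 with the value table (Ndufaf5), with no filter (Ndufa4l2), and with quantile normalization or the trend removed (Cox6a2). Between the treated arrays 0 became 2 with no filter. The cause of these changes was not tested, beyond what each alternative's construction shows. No paired analysis was possible because each group has 1 array. Of the measured members 36 of 75 are read by spots in those rows, Ndufaf5 and Cox6a2 among them.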

Other observations

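The array holds 6 probes on the mitochondrial chromosome, which carries further subunits of complexes I, III and IV. The files do not pair them with gene symbols. All 6 were well above background on the 3 arrays. Their log2 ratios to vehicle ran from -0.37 to 0.26 (median -0.089) on the epoxide-labelled array and from -0.23 to 0.30 (median 0.017) on the GW9662-labelled array. Ppargc1a, the coactivator known for inducing mitochondrial genes, was well above background only on the epoxide-labelled array, at -5.15, and read -5.99 with vehicle and -5.72 on the GW9662-labelled array, neither well above background. The dimmest level called above background was -5.57 on the epoxide-labelled array, -4.84 with vehicle and -5.03 on the GW9662-labelled array. A level of -5.15 is thus under the dimmest one called with vehicle or on the GW9662-labelled array, and the calls do not show a difference. The gene named 1810043H04Rik in the files, which RefSeq lists as the complex I assembly factor Ndufaf8, read 0.16 with vehicle, 0.64 on the epoxide-labelled array and 0.26 on the GW9662-labelled array.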
